A study of Mus musculus with 9 samples.

Results

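The genes of the uterine extracellular matrix described here are 38 collagens, matrix glycoproteins, proteoglycans, matrix proteases and protease inhibitors, chosen by name, out of 35934 genes with a value in the deposited data. They were measured by RNA sequencing of mouse uterus in 9 libraries, 3 in each of 3 groups. The level of a gene was the sum of the FPKM (fragments scaled to transcript length and to the number of mapped fragments) of its annotated transcripts, and 36 of the 38 genes reached the mean of 1 FPKM that was required for a test. All animals were immature C57BL/6 females, 25 days old in the treatment protocol, while the series' design text also gives 21 days. They had been primed with a single 1 mg dose of progesterone and with β-estradiol at 10 mg/kg per day, over 3 days in all. Control horns then received 50 µl of embryo culture medium that had held no embryo. The competent group received the same volume of medium pooled from 9 developmentally competent human embryos, and the arrested group medium pooled from 18 human embryos that had arrested. Priming of an immature uterus and the pooling of human embryo media limit what the groups can stand for. The comparison asks how the matrix genes of a hormone-primed uterus stand after exposure to what embryos of either fate release.

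The extracellular matrix of the uterus is laid down mainly by stromal fibroblasts and by the smooth muscle of the myometrium. Fibrillar collagens I, III and V give tensile strength, networks of collagens IV and VI surround cells and vessels, and elastin on a fibrillin scaffold gives recoil. Small leucine-rich proteoglycans such as decorin set the spacing of collagen fibrils, lysyl oxidases cross-link them, and matrix metalloproteinases, held in check by TIMPs, degrade them. In rodents the endometrial matrix is remodelled around implantation.

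Elastin and 12 of the 14 collagen genes had their highest group mean after competent medium, and decorin, lumican and Mmp2 their lowest, but no single matrix gene passed the test. Among the collagens the exceptions were Col18a1 and Col12a1, and for Col3a1 the order rests on a control library listed at 0. The group mean was also lowest after competent medium for Col18a1, Fn1, Postn, Mmp11, Timp3 and, in FPKM, Tnc. How many of all tested genes had either order was not counted. Of 9 further collagens tested, 5 had a positive and 4 a negative difference between competent and control libraries. In the comparison of competent with control libraries, 7 of the 36 genes (Col1a1, Col1a2, Col4a1, Col4a2, Col15a1, Eln and Fbln1) were higher in every competent library than in any control library. Over all genes tested, 6.72% had this pattern. Another 4 (Dcn, Lum, Postn and Mmp2) were lower in every competent library, against 8.13% of all genes. By a second measure of level, exon coverage, 9 of 37 genes were higher throughout (Sparc, Col5a1 and Col6a3 added, Col15a1 not) and 3 lower (Postn not), against 7.68% and 10.2% of all genes. Exon coverage adds read depth over all of a gene's transcripts, however reads were divided among them, per base of exon and on the FPKM scale of each library. After arrested medium the libraries differed widely among themselves. The lowest of the 9 libraries was arrested library 1 for 22 of the 36 genes, against 14.2% of all genes tested. None of the 36 genes had its highest value there, against 17% of all genes tested.

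None of the 36 genes passed an adjusted p of 0.05 in any of the 3 comparisons (limma, Benjamini-Hochberg adjustment over 13333 genes). Over all genes the share passing was 0.045% between competent and control, 0.135% between arrested and competent, and 0.0525% between arrested and control. At an unadjusted p under 0.05 the matrix genes numbered 3, 6 and 0 in those comparisons, where all genes gave 5.18%, 10.9% and 5.27%. Whether each library is a separate animal is not in the labels, so the p-values measure only how far these samples spread, and that spread may be technical. The comparisons share groups of libraries, so their results are not independent of each other. In whole tissue, fewer cells of a type and less RNA per cell cannot be told apart.

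Every library held the tissue's main cell types. The summed FPKM of 10 epithelial markers (such as Krt8 and Krt18) was 2338 to 2939 in control, 2495 to 2889 in competent and 2178 to 3230 in arrested libraries. For 10 smooth muscle markers (such as Acta2, Myh11 and Des) it was 1639 to 1736, 1436 to 2805 and 887 to 2189, with Mylk listed at 0 in at least 1 library. For 10 stromal fibroblast markers (such as Pdgfra, Hoxa10 and Vim) it was 816 to 1200, 639 to 973 and 742 to 1495, with Pdgfrb listed at 0 in at least 1 library. Of 8 adipocyte markers, 6 were listed at 0 in at least 1 library, and their sum ran from 1.42 FPKM in competent library 1 to 1360 FPKM in arrested library 2. Depth in reads is unknown, and coverage summed to between 1279 and 2360 Mb per library.

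**Figure D1:**
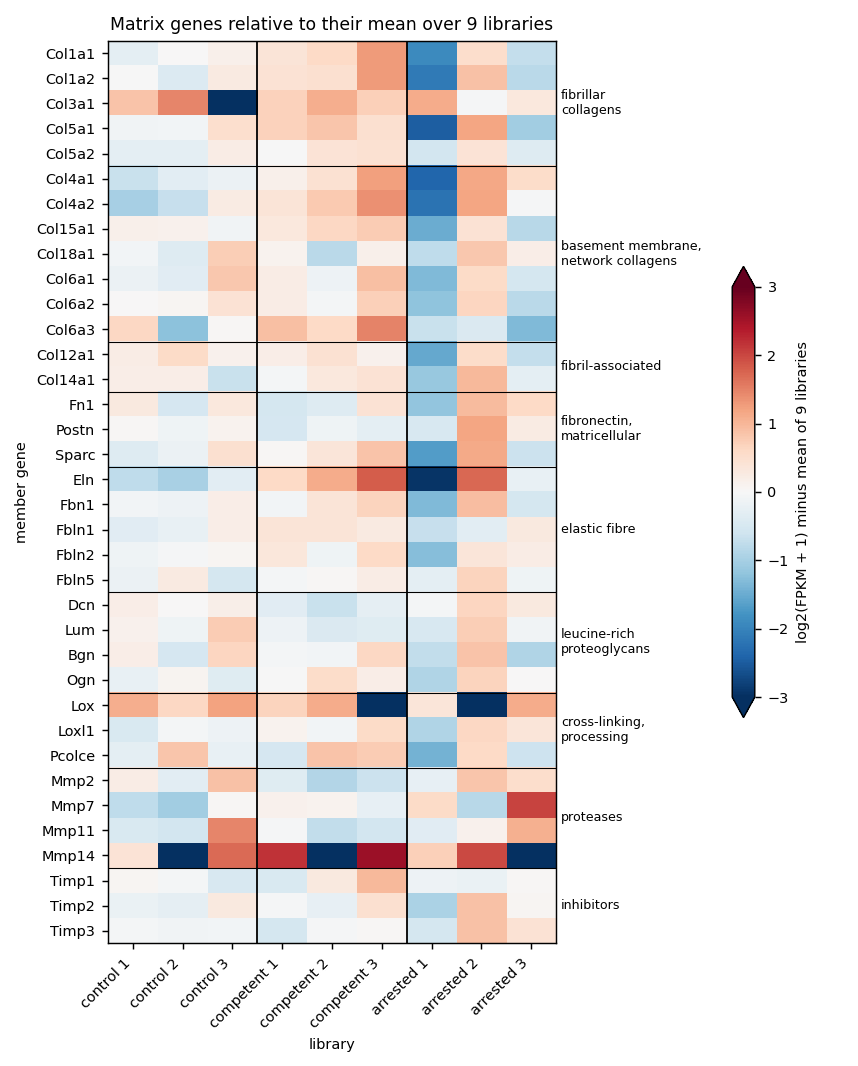
Each row is 1 of the 36 tested matrix genes, grouped by role, and each column 1 of the 9 libraries; colour gives log2(FPKM + 1) minus the gene's mean over the 9 libraries, with the scale ending at 3 in either direction. Arrested library 1 is the lowest for 22 genes (14.2% of all genes tested). Competent library 3 is the highest for 13 (8.81% of all genes) and arrested library 2 for 14 (15% of all genes).

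Promoter sequences are shown for 3 genes whose levels differ in kind: a chain of the main fibrillar collagen, the collagen with the largest difference between arrested and competent libraries among the members with an unadjusted p under 0.05, and the protease that stood highest in 1 arrested library. They are the 250 bases before the annotated start in RefSeq on GRCm38.p6, where 27 of the 38 genes had an entry. Capitals mark matches to CCAAT (the motif of NF-Y), TATAAA (the TATA box), GGGCGG (the GC box) or TGANTCA (the AP-1 site), searched on both strands. Col1a2 lies at chr6:4505368-4505617 on the plus strand, Col6a3 at chr1:90843972-90844221 on the minus strand and Mmp7 at chr9:7691840-7692089 on the plus strand.
Col1a2: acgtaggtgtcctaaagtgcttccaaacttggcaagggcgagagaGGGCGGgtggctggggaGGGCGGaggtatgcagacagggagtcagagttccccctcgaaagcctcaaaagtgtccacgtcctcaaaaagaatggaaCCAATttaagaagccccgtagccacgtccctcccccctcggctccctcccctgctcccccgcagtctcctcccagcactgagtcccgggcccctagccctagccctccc
Col6a3: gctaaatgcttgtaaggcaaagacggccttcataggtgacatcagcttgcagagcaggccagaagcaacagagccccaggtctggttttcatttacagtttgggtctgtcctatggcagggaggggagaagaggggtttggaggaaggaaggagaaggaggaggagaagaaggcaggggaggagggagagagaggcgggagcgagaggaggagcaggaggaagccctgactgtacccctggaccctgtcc
Mmp7: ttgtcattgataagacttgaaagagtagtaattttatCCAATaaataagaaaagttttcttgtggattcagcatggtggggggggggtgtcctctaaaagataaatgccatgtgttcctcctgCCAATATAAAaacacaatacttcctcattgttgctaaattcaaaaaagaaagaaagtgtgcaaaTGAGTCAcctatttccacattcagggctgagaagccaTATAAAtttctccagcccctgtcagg
Col1a2 held GGGCGG starting 205 and 188 bases before the start and CCAAT 109 bases before it, and Col6a3 held none of the 4 motifs in this window. Mmp7 held CCAAT at 213 and 127 bases, TATAAA at 123 bases (overlapping the nearer CCAAT) and again at 26 bases, and TGANTCA at 63 bases. Over the 27 genes, GGGCGG was found in 18, CCAAT in 10, TATAAA in 5 and TGANTCA in 2, these last being Col6a1 and Mmp7. Of 32851 promoter entries of the same length, 32.7% held GGGCGG, 33.8% CCAAT, 12.4% TATAAA and 6.75% TGANTCA. A gene counted if any of its entries matched, whereas these shares are of single entries, so the 2 are not strictly alike. A match is a run of letters and does not show that a factor binds there.

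Type I collagen, the most abundant fibrillar collagen of connective tissue, is built from the chains of Col1a1 and Col1a2. Col1a1 (ENSMUSG00000001506, chr11:94797538-94814356 on NCBIM37) stood at 111, 138 and 152 FPKM in control libraries 1 to 3, at 178, 207 and 331 FPKM in the competent libraries and at 35.6, 198 and 83.6 FPKM in the arrested libraries. All 3 competent libraries lay above all 3 control libraries, whereas the arrested libraries spanned both, with library 2 among the competent values and libraries 1 and 3 below every control. The competent mean was 238 ± 81.4 FPKM (SD, n = 3) against 134 ± 20.5 in control, a difference of 0.79 ± 0.55 (SE) in mean log2(FPKM + 1) with limma's adjusted p = 0.954. Between arrested and competent libraries the difference was -1.44 ± 0.55, with an unadjusted p of 0.0294 and an adjusted p of 0.410 (limma).

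Col1a2 was, like Col1a1, highest in competent library 3 and lowest in arrested library 1. It was at 111, 84.2 and 135 FPKM in control, 150, 156 and 274 FPKM in competent, and 25.0, 206 and 63.1 FPKM in arrested libraries. The competent and control groups did not overlap, and the difference of 0.78 ± 0.66 in mean log2(FPKM + 1) had an adjusted p of 0.955 (limma). Within the arrested group the highest library was 8.23 times the lowest for Col1a2 and 5.56 times for Col1a1, against 1.61 and 1.36 times within control.

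Type III collagen, the second fibrillar collagen of soft tissue, had another order of libraries. Col3a1 was at 131, 199 and 0 FPKM in control, 116, 155 and 118 FPKM in competent and 156, 69.8 and 89.7 FPKM in arrested libraries. Only 1 of its annotated transcripts had a value above 0 in any library. Control library 3 was listed at 0 for it, which can be a failed estimate, and the exon coverage of Col3a1 there was also 0. Without that library the difference between competent and control turned from 2.12 ± 1.75 to -0.33 ± 0.35 in mean log2(FPKM + 1), and that between arrested and control from 1.75 ± 1.75 to -0.70 ± 0.35. Among the libraries above 0 the groups overlapped, and arrested library 1, lowest for the type I chains, was the second highest for Col3a1.

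Type V collagen sits inside type I fibrils and limits their diameter. Col5a1 was at 4.17, 4.27 and 6.86 FPKM in control, 7.95, 8.80 and 6.78 FPKM in competent, and 0, 11.5 and 1.70 FPKM in arrested libraries. By exon coverage Col5a1 was at 12.8, 14.3 and 15.5 in control, 16.3, 23.6 and 29.0 in competent, and 5.37, 20.5 and 5.18 in arrested libraries. The competent libraries then all lay above control. Col5a2 ranged from 33.6 to 48.9 FPKM in control, 41.4 to 57.4 FPKM in competent and 28.3 to 55.6 FPKM in arrested libraries.

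**Figure D2:**
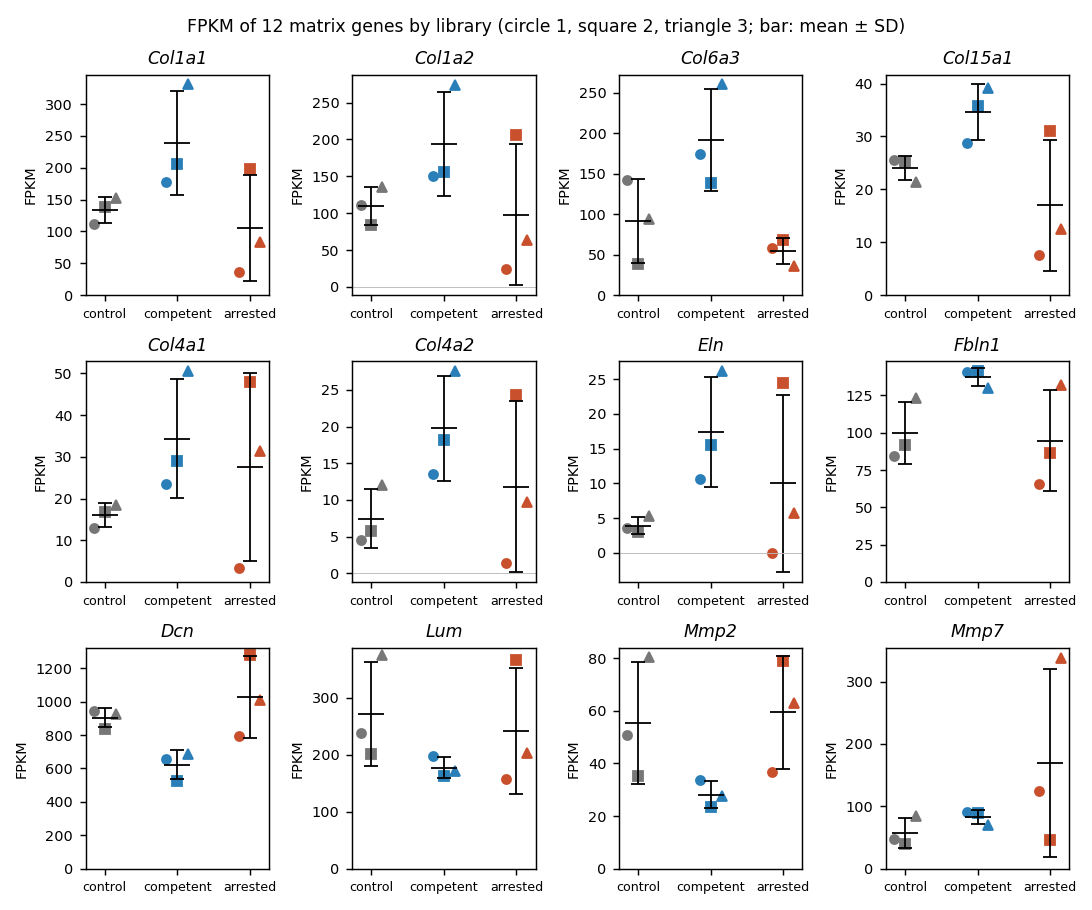
FPKM of 12 matrix genes in each library, by group on the horizontal axis; the symbols are libraries 1 (circle), 2 (square) and 3 (triangle) and the bar is the mean with its SD. For Col1a1 the competent libraries (178 to 331 FPKM) lie above control (111 to 152 FPKM), for Dcn they lie below (523 to 687 against 838 to 943 FPKM), and arrested libraries are spread widely.

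Type IV collagen is the scaffold of basement membranes. Its chains Col4a1 (chr8:11198423-11312826, minus strand) and Col4a2 (chr8:11312805-11449287, plus strand) are neighbours that start head to head and share 22 bases in this annotation. Col4a1 was at 12.9, 16.8 and 18.5 FPKM in control, 23.5, 29.0 and 50.5 FPKM in competent, and 3.23, 47.9 and 31.3 FPKM in arrested libraries. Col4a2 was at 4.52, 5.82 and 12 FPKM in control, 13.5, 18.2 and 27.5 FPKM in competent, and 1.37, 24.3 and 9.76 FPKM in arrested libraries. For both chains the competent libraries were all above control, and arrested library 1 was the lowest of the 9. The differences between competent and control were 0.99 ± 0.81 for Col4a1 and 1.34 ± 0.79 for Col4a2 in mean log2(FPKM + 1), with adjusted p of 0.955 and 0.954 (limma).

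Col15a1 encodes a collagen that links basement membranes to the fibres beneath. It was at 25.5, 25.2 and 21.3 FPKM in control, 28.8, 35.8 and 39.2 FPKM in competent, and 7.48, 31.0 and 12.4 FPKM in arrested libraries. The competent libraries lay above control, with a difference of 0.50 ± 0.42, and arrested libraries 1 and 3 lay below control. Between arrested and competent the difference was -1.20 ± 0.42 in mean log2(FPKM + 1), with an adjusted p of 0.397 (limma). By exon coverage, competent and control overlapped for this gene. Its relative Col18a1, the source of endostatin, ranged from 14.7 to 33.1 FPKM in control, 10.6 to 21.6 FPKM in competent and 11 to 34.9 FPKM in arrested libraries.

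Type VI collagen forms beaded filaments around cells from the chains of Col6a1, Col6a2 and Col6a3, and the chain of Col6a3 stood apart from the others. Col6a3 (ENSMUSG00000048126, chr1:92663435-92740529 on NCBIM37) was at 142, 38.5 and 93.8 FPKM in control, 174, 138 and 261 FPKM in competent, and 57.7, 67.6 and 36.2 FPKM in arrested libraries. Each arrested library was below each competent one, with means of 53.8 ± 16.1 FPKM against 191 ± 63.1 FPKM (SD, n = 3). It was the only 1 of the 36 genes lower in all arrested than in all competent libraries, a pattern found in 8.75% of all genes tested. The difference was -1.80 ± 0.48 in mean log2(FPKM + 1), with an unadjusted p of 0.00521 and an adjusted p of 0.286 (limma). Control libraries overlapped both other groups.

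Part of the Col6a3 value rests on a 646-nt transcript that was listed at 0 in 4 of the 9 libraries and at up to 127 FPKM in the others. By exon coverage, which is less exposed to such a short transcript, Col6a3 was at 18.4, 26.1 and 17.2 in control, 29.7, 45.5 and 44.6 in competent, and 8.82, 25.0 and 10.2 in arrested libraries. The arrested libraries were again all below the competent ones (-1.50 ± 0.37, adjusted p = 0.160, limma), and the competent libraries were then also all above control (0.92 ± 0.37, adjusted p = 0.768, limma).

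The other chains of collagen VI did not separate the groups. Col6a1 was at 157, 138 and 312 FPKM in control, 205, 159 and 331 FPKM in competent, and 70.3, 264 and 121 FPKM in arrested libraries. Col6a2 was at 180, 185 and 244 FPKM in control, 207, 172 and 292 FPKM in competent, and 76.6, 282 and 102 FPKM in arrested libraries. For both, arrested libraries 1 and 3 were below every competent and control library while arrested library 2 was near the top. The fibril-associated collagens, which bind the surface of type I fibrils, were lower in level. Col14a1 was at 12.9, 12.9 and 6.69 FPKM in control, 10.7, 14.1 and 15.4 FPKM in competent, and 4.52, 22.8 and 8.94 FPKM in arrested libraries. Col12a1 was at 2.36, 3.28 and 2.15 FPKM in control, 2.34, 2.99 and 2.13 FPKM in competent, and 0, 3.21 and 0.757 FPKM in arrested libraries.

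Elastin had the largest difference between competent and control among the 7 genes whose groups did not overlap upward. Eln (chr5:135179651-135223111 on NCBIM37) was at 3.52, 2.93 and 5.23 FPKM in control, 10.6, 15.6 and 26.1 FPKM in competent, and 0, 24.4 and 5.67 FPKM in arrested libraries. The lowest competent library was above the highest control library, with means of 17.4 ± 7.93 FPKM and 3.89 ± 1.19 FPKM (SD, n = 3). The difference was 1.85 ± 1.00 in mean log2(FPKM + 1), with an unadjusted p of 0.102 and an adjusted p of 0.954 (limma). The fit's spread for Eln comes mostly from the arrested group, whose SD was 2.35 on the log2 scale against 0.34 in control and 0.62 in competent. By exon coverage Eln was at 16.8, 21.0 and 16.2 in control, 31.1, 52.1 and 71.4 in competent, and 4.42, 59.6 and 29.1 in arrested libraries, so arrested library 1 was low but not empty.

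Fbln1 encodes fibulin-1, a glycoprotein of elastic fibres and basement membranes, and it was the steadiest gene of the competent group. It was at 84.4, 91.8 and 124 FPKM in control, 141, 142 and 130 FPKM in competent, and 66.0, 86.5 and 132 FPKM in arrested libraries. Competent libraries all lay above control, by 0.48 ± 0.25 in mean log2(FPKM + 1) with an adjusted p of 0.953 (limma). Arrested libraries 1 and 2 were below the competent range and library 3 within it, at a difference of -0.59 ± 0.25 with an adjusted p of 0.450 (limma). Fbln2 was at 14.6, 15.6 and 16.7 FPKM in control, 20.7, 14.6 and 24.9 FPKM in competent, and 6.01, 20.9 and 18.8 FPKM in arrested libraries, with groups that overlapped. The fibrillin gene Fbn1 ranged from 0.646 to 6.82 FPKM and Fbln5, needed to assemble elastic fibres, from 1.94 to 5.68 FPKM over the 9 libraries, both with their highest value in arrested library 2.

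Decorin, the proteoglycan that coats type I collagen fibrils, was lowest in the group where type I collagen was highest. Dcn (ENSMUSG00000019929, chr10:96942245-96980777 on NCBIM37) was at 943, 838 and 928 FPKM in control, 657, 523 and 687 FPKM in competent, and 792, 1281 and 1012 FPKM in arrested libraries. The competent libraries lay below all of the other 6. Means were 903 ± 56.7 FPKM in control, 622 ± 87.3 FPKM in competent and 1028 ± 245 FPKM in arrested libraries (SD, n = 3 each). Competent minus control was -0.54 ± 0.19 in mean log2(FPKM + 1), with an unadjusted p of 0.0191 and an adjusted p of 0.880 (limma). Arrested minus competent was 0.71 ± 0.19, with an unadjusted p of 0.00527 and an adjusted p of 0.287 (limma).

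Lumican, another regulator of fibril growth, is encoded next to decorin. Lum was at 238, 202 and 375 FPKM in control, 198, 163 and 171 FPKM in competent, and 157, 367 and 202 FPKM in arrested libraries. Competent libraries were all below control, by -0.56 ± 0.33 with an adjusted p of 0.954 (limma), while arrested libraries overlapped both groups. By exon coverage the distance between competent and control was smaller, at -0.21 ± 0.25. Bgn, which encodes biglycan, was at 77.7, 47.3 and 106 FPKM in control, 64.9, 64.3 and 104 FPKM in competent, and 39.9, 123 and 35.8 FPKM in arrested libraries. Ogn, for osteoglycin, ranged from 24.4 FPKM in arrested library 1 to 74.6 FPKM in arrested library 2. Neither separated the groups.

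Sparc, a collagen-binding matricellular protein, was among the most abundant matrix transcripts. It was at 405, 468 and 737 FPKM in control, 541, 684 and 962 FPKM in competent, and 166, 1174 and 338 FPKM in arrested libraries. Control library 3 and arrested library 2 included 326 and 481 FPKM of a 640-nt transcript that was listed at 0 in the other 7 libraries. By exon coverage Sparc was at 263, 302 and 331 in control, 352, 443 and 628 in competent, and 133, 546 and 220 in arrested libraries, and the competent libraries were then all above control.

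Fibronectin and periostin, ligands of integrins on stromal cells, followed other orders. Fn1 was at 40.8, 23.3 and 41.7 FPKM in control, 22.7, 25.1 and 45.4 FPKM in competent, and 13.9, 65.3 and 50.9 FPKM in arrested libraries. By exon coverage arrested library 1 was not the lowest for Fn1. It was at 33.1, above control library 2 (22.0) and competent libraries 1 and 2 (21.5 and 23.9). Postn was at 28.2, 25.0 and 29.7 FPKM in control, 19.3, 25.0 and 22.4 FPKM in competent, and 19.6, 63.9 and 32.8 FPKM in arrested libraries. Competent libraries were below control for Postn by a margin that is not visible at 3 digits, and they overlapped in exon coverage. The remaining genes of this class were too low in FPKM to test. Tnc, for tenascin C, was at 1.65, 0 and 1.05 FPKM in control, 0.735, 0 and 0 FPKM in competent, and 1.38, 2.73 and 0.533 FPKM in arrested libraries. By exon coverage Tnc was at 1.48, 1.18 and 0.796 in control, 1.98, 1.34 and 1.69 in competent, and 1.13, 3.57 and 3.23 in arrested libraries, so the libraries listed at 0 were not empty. The competent mean was then above control rather than below it, with a difference of 0.32 ± 0.31 and an adjusted p of 0.940 (limma), and the groups overlapped. Vcan, for versican, was listed at 0 in 8 libraries and at 1.37 FPKM in arrested library 2, although its exon coverage ran from 0.382 to 3.64.

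Among genes that process and cross-link collagen, no groups separated. Lox, the lysyl oxidase that cross-links collagen and elastin, was at 17.0, 12.1 and 18.6 FPKM in control, 12.6, 17.5 and 0 FPKM in competent, and 9.86, 0 and 17.4 FPKM in arrested libraries. The libraries listed at 0 were not empty of Lox reads, since their exon coverage was 19.6 in competent library 3 and 33.5 in arrested library 2, the highest of its group in each case. Loxl1, the elastin-directed relative, was at 16, 21.3 and 20.0 FPKM in control, 24, 20.9 and 33.8 FPKM in competent, and 11.4, 35.0 and 29.2 FPKM in arrested libraries. Pcolce, the enhancer of procollagen C-proteinase, was at 34.1, 75.3 and 35.9 FPKM in control, 29.4, 76.1 and 71.1 FPKM in competent, and 15.1, 64.1 and 26.8 FPKM in arrested libraries. Control library 2 and competent library 2 included 38.5 and 39.1 FPKM of a 509-nt transcript that was listed at 0 in every other library. By exon coverage Pcolce was at 17.7, 20.8 and 10.1 in control, 12.5, 21.0 and 30.2 in competent, and 6.42, 27.3 and 11.4 in arrested libraries.

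Mmp2, the gelatinase made by stromal cells, had the pattern of decorin. Mmp2 (ENSMUSG00000031740, chr8:95351227-95377316 on NCBIM37) was at 50.7, 35.0 and 80.5 FPKM in control, 33.7, 23.3 and 27.6 FPKM in competent, and 36.6, 78.9 and 62.8 FPKM in arrested libraries. Its competent libraries lay below all of the other 6, though competent library 1 was close to control library 2. Dcn and Mmp2 were the 2 genes higher in every arrested than in every competent library, against 7.73% of all genes tested. Competent minus control was -0.89 ± 0.36 in mean log2(FPKM + 1), with an adjusted p of 0.944, and arrested minus competent was 1.00 ± 0.36, with an adjusted p of 0.398 (limma). Between arrested and control libraries no matrix gene separated in either direction, where 3.49% of all genes were higher and 5.36% lower throughout.

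**Figure D3:**
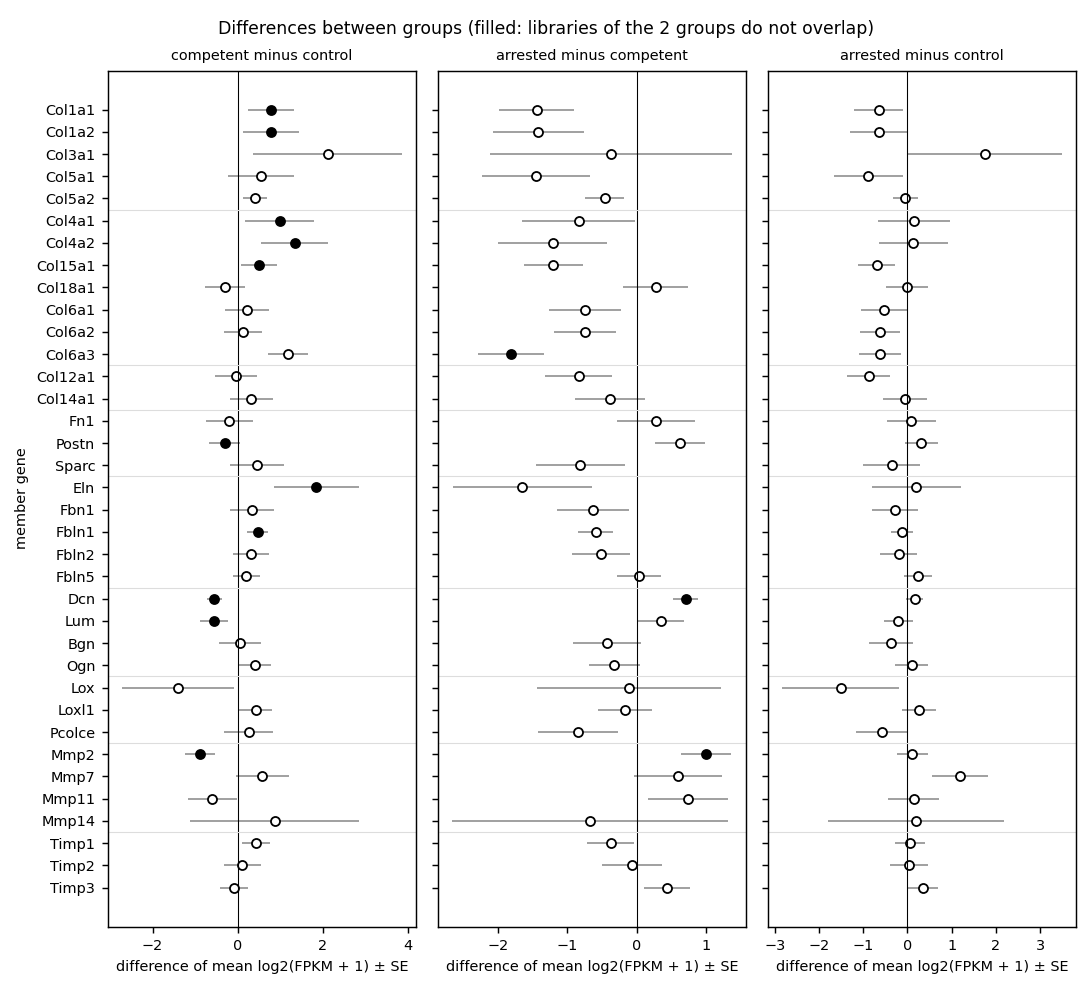
Differences in mean log2(FPKM + 1) with their SE for the 36 tested genes in each comparison, in the same order of roles in each panel; filled points mark genes whose libraries do not overlap between the 2 groups. Between competent and control 7 filled points lie above 0 and 4 below, between arrested and competent 2 lie above and 1 below, and between arrested and control none is filled.

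Matrilysin is a protease of the uterine epithelium, and 1 library stood far above the rest for it. Mmp7 (ENSMUSG00000018623, chr9:7692086-7699585 on NCBIM37) was at 48.3, 39.7 and 84.9 FPKM in control, 90.3, 88.9 and 69.8 FPKM in competent, and 124, 46.1 and 337 FPKM in arrested libraries. Arrested library 3 was the highest of the 9 and arrested library 2 lay within the control range. The difference between arrested and control was 1.18 ± 0.63 in mean log2(FPKM + 1), with an adjusted p of 0.904 (limma). Mmp11, stromelysin-3, also had single high libraries. It was at 10.4, 9.73 and 42.2 FPKM in control, 14.2, 8.41 and 9.61 FPKM in competent, and 11.4, 16.3 and 31.9 FPKM in arrested libraries.

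Mmp14, the membrane-bound activator of pro-Mmp2, could not be read from its FPKM. It was at 11, 0 and 28.2 FPKM in control, 39.3, 0 and 52.0 FPKM in competent, and 13.9, 34.3 and 0 FPKM in arrested libraries, with 1 library listed at 0 in each group. By exon coverage it was at 83.1, 101 and 136 in control, 143, 129 and 86.2 in competent, and 53.6, 96.5 and 104 in arrested libraries. No library was empty by that measure, and the groups overlapped.

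The inhibitors of these proteases did not separate the groups either. Timp1 was at 9.85, 9.00 and 6.55 FPKM in control, 6.68, 11.7 and 19.5 FPKM in competent, and 8.44, 8.15 and 9.68 FPKM in arrested libraries, and it was the gene with the smallest arrested spread, at an SD of 0.12 on the log2 scale. Timp2, which also takes part in Mmp2 activation, was at 22.3, 21.2 and 31.8 FPKM in control, 24.8, 21.3 and 36 FPKM in competent, and 12.7, 47.7 and 26.6 FPKM in arrested libraries. Timp3, the matrix-bound inhibitor, was at 24.4, 23.7 and 24.2 FPKM in control, 17.4, 25.1 and 26.3 FPKM in competent, and 17.6, 47.9 and 34.9 FPKM in arrested libraries. Its control libraries were the tightest of any member in any group, at an SD of 0.02 on the log2 scale.

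Counted by class, all 5 fibrillar collagens, 6 of 7 basement membrane and network collagens and all 5 elastic fibre genes had a positive difference between competent and control, that of Col3a1 only with control library 3 at 0. Over the 36 genes 26 differences were positive and 10 negative, with a median of 0.33, where 48.1% of all genes were positive and their median was -0.01. Between arrested and competent 10 were positive and 26 negative, with a median of -0.44, where 48.7% of all genes were positive and their median was -0.01. All 5 fibrillar collagens were negative there, as were 6 of 7 network collagens and 4 of 5 elastic fibre genes, while 3 of 4 proteases were positive. Between arrested and control 17 were positive and 19 negative, with a median of -0.03, where 46.9% of all genes were positive and their median was -0.02. These counts describe genes that vary together and carry no test.

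The arrested libraries differed among themselves more than the libraries of either other group. The median SD of log2(FPKM + 1) between libraries was 0.96 for the 36 genes in the arrested group, against 0.36 for all genes tested. In control it was 0.34 against 0.25, and in competent 0.37 against 0.22. The SD was larger in arrested than in control libraries for 31 of the 36 genes (63.1% of all genes) and larger than in competent libraries for 32 (69% of all genes). By exon coverage the medians for 37 matrix genes were 0.79 in arrested, 0.26 in control and 0.34 in competent libraries.

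**Figure D4:**
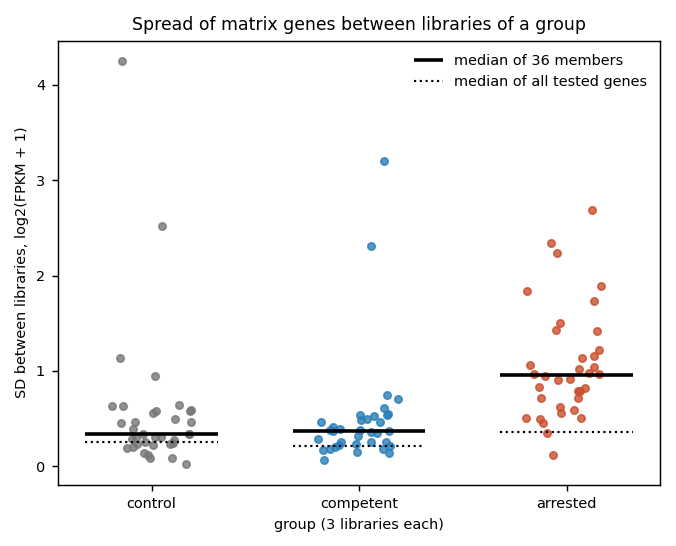
SD of log2(FPKM + 1) between the 3 libraries of each group, 1 point for each of the 36 tested matrix genes, with the median of the matrix genes as a solid line and that of all tested genes as a dotted line. The solid line is at 0.96 in the arrested group and at 0.34 and 0.37 in control and competent, and the points above 2 in control and competent are genes with a library listed at 0.

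Arrested libraries 1 and 2 set this spread from opposite sides. Arrested library 1 was the lowest of 9 for 22 of the 36 matrix genes, against 14.2% of all genes, and arrested library 2 was the highest for 14, against 15%. Competent library 3 was the highest for 13, against 8.81% of all genes. Without arrested library 1 the median difference between arrested and competent was -0.18, with 16 genes positive and 20 negative (50.4% of all genes negative), and 8 genes rather than 2 were higher in both remaining arrested libraries than in any competent one (13.7% of all genes). Against control, 8 genes were then higher in both remaining arrested libraries (9.17% of all genes), and the median difference was 0.30.

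Without arrested library 2 the picture was another. The median difference between arrested and competent was -0.78, with 28 genes negative (53.7% of all genes), and 17 genes were lower in both remaining arrested libraries than in any competent one, among them Col1a1, Col1a2, Col5a1, Col6a1, Col6a2, Eln, Sparc and Bgn (17% of all genes). An unadjusted p under 0.05 was then reached by 18 genes, where 12.3% of all genes did, and the smallest adjusted p was 0.0502, for Col15a1 (limma). Against control, 12 genes were lower in both (14.4% of all genes), and the median difference was -0.51. The direction of the matrix genes between arrested and control libraries thus turned on which of these libraries was left out. Without competent library 3, 37 matrix genes were tested, with 22 positive and 15 negative differences between competent and control. Their median was 0.12, against -0.01 over all genes tested.

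Arrested library 1 was the lowest of the 9 for 8 of the 10 smooth muscle markers and for 11 of the 14 collagens; Col3a1, Col18a1 and Col6a3 had their lowest value elsewhere. The median of the 5 fibrillar collagens, relative to each gene's mean over the 9 libraries of log2(FPKM + 1), was 0.42, 0.59 and 0.71 in the competent libraries and -1.92, 0.53 and -0.71 in the arrested libraries. The median of the 10 smooth muscle markers was -0.04, 0.80 and 0.40 and -1.13, 0.52 and -0.32 in the same libraries. Of these 10 markers, 9 had a positive difference between competent and control and 9 a negative one between arrested and competent (48.1% and 48.7% of all genes were positive in these comparisons), and none passed an adjusted p of 0.05 in either (limma). The median of 8 endothelial markers was likewise lowest in arrested library 1 (-0.69) and highest in arrested library 2 (0.65). The part of either marker list in the collagen values was not tested.

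Stromal fibroblast markers were, like decorin and Mmp2, low in the competent libraries. Their median was 0.12, -0.02 and 0.41 in control, -0.29, -0.46 and -0.18 in competent, and -0.13, 0.72 and 0.00 in arrested libraries. All 10 had a negative difference between competent and control, 5 of them with groups that did not overlap (8.13% of all genes were lower throughout and 48.1% positive), and 9 of 10 had a positive one between arrested and competent (48.7% of all genes), while none passed an adjusted p of 0.05 (limma). Pdgfra, the receptor that marks these cells, was at 11.8, 12.5 and 35.9 FPKM in control, 12.1, 11.6 and 11.9 FPKM in competent, and 15.2, 36.6 and 16.8 FPKM in arrested libraries. Their part in the values of Dcn and Mmp2 was not tested, nor was that of the adipocyte markers, which summed to 1360 FPKM in arrested library 2.

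**Figure D5:**
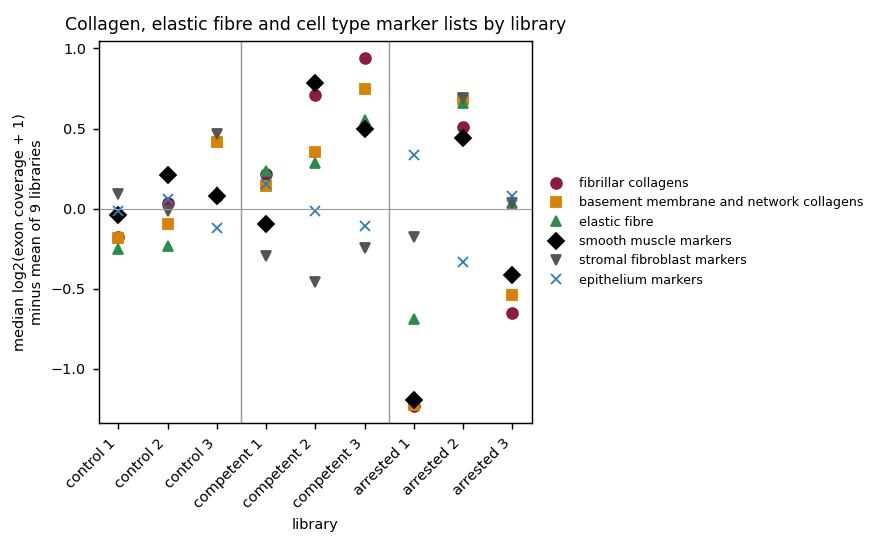
Median log2(exon coverage + 1) of 3 matrix gene classes and of 3 cell type marker lists in each library, relative to each gene's mean over the 9 libraries. In arrested library 1 the fibrillar collagens (-1.23) and the smooth muscle markers (-1.19) are both at their lowest while the epithelial markers are at 0.34. Of lists not drawn, endothelial (-0.73), mesothelial (-1.06) and adipocyte (-2.61) markers were also at their lowest there. The mesothelial value was close to that of control library 3 (-1.05). By FPKM it was not the lowest, at -0.61 against -0.89 in control library 3. Macrophage, lymphocyte and erythroid markers were not, nor were the stromal fibroblast markers drawn here.

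Other genes of matrix biology were followed through 6 lists. In each list no gene passed an adjusted p of 0.05 in any comparison (limma). Of 25 genes of collagen synthesis and cross-linking, 19 were tested, with 11 positive and 8 negative differences between competent and control and 5 positive and 14 negative between arrested and competent. None of them reached an unadjusted p under 0.05 in any comparison. Of 29 further collagens 9 were tested. Their differences were 5 positive and 4 negative between competent and control, and 3 positive and 6 negative between arrested and competent. At an unadjusted p of 0.0286 and 0.0243 (limma), 2 of the 9, Col5a3 and Col8a2, were higher in competent than in control libraries. Col8a2, a collagen of vessel walls and of specialised basement membranes, was at 0, 1.23 and 0.935 FPKM in control, 3.33, 2.44 and 7.32 FPKM in competent, and 0.406, 4.07 and 3.22 FPKM in arrested libraries. Its competent libraries were above every control library.

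Of 39 other matrix glycoproteins and proteoglycans 31 were tested, with 16 positive and 15 negative differences between competent and control and 17 and 14 between arrested and competent. Igfbp7, a secreted protein that binds insulin-like growth factors, had the pattern of decorin. It was at 360, 340 and 376 FPKM in control, 225, 231 and 207 FPKM in competent, and 295, 486 and 350 FPKM in arrested libraries. Its differences were -0.70 ± 0.17 between competent and control (adjusted p = 0.852) and 0.74 ± 0.17 between arrested and competent (adjusted p = 0.260, limma). Mfap5, a microfibril protein, was at 371, 310 and 448 FPKM in control, 201, 151 and 178 FPKM in competent, and 353, 467 and 155 FPKM in arrested libraries. Arrested library 3 lay within the competent range.

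Efemp1, a fibulin, was at 34.3, 34.5 and 38.9 FPKM in control, 40.4, 29.1 and 39.8 FPKM in competent, and 56.3, 55.4 and 52.8 FPKM in arrested libraries. Arrested libraries were above all others in FPKM, with differences of 0.59 ± 0.15 from competent (adjusted p = 0.260) and 0.60 ± 0.15 from control (adjusted p = 0.850, limma). By exon coverage its arrested libraries spread more, at 46.4 ± 7.43 against 35.1 ± 2.97 in control and 32.7 ± 7.64 in competent (SD, n = 3 each). Ctgf, a matricellular target of TGF-beta, was at 2.96, 2.76 and 7.39 FPKM in control, 1.08, 2.10 and 2.67 FPKM in competent, and 4.03, 9.63 and 27.5 FPKM in arrested libraries, a difference of 2.0 ± 0.62 between arrested and competent (adjusted p = 0.366, limma). Spon1, for spondin 1, was at 17.0, 14.7 and 11.2 FPKM in control, 13.1, 9.10 and 17.0 FPKM in competent, and 2.90, 12.9 and 2.57 FPKM in arrested libraries.

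Of 33 other matrix proteases and inhibitors 23 were tested. Mmp19 was at 12.8, 10.8 and 8.31 FPKM in control, was listed at 0 in all 3 competent libraries, and was at 0, 10.8 and 2.28 FPKM in arrested libraries. The unadjusted p between competent and control was 0.00159 and the adjusted p 0.682 (limma). By exon coverage too Mmp19 was at 0 in all 3 competent libraries, against means of 10.6 in control and 5.03 in arrested libraries. A value listed at 0 can be a failed estimate, which was not tested. Fap, a protease of activated fibroblasts, was at 1.69, 1.70 and 1.92 FPKM in control, 2.59, 4.23 and 7.99 FPKM in competent, and 0.971, 3.05 and 2.15 FPKM in arrested libraries, with every competent library above control. Htra1, a serine protease of the matrix, was at 112, 80.5 and 101 FPKM in control, 122, 91.0 and 104 FPKM in competent, and 67.0, 93.3 and 67.1 FPKM in arrested libraries, with groups that overlapped.

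Of 19 matrix receptors 15 were tested, and the syndecan gene Sdc4 alone reached an unadjusted p under 0.05, between arrested and competent (0.0119, adjusted p = 0.366, limma). It was at 139, 144 and 128 FPKM in control, 138, 74.0 and 111 FPKM in competent, and 171, 149 and 194 FPKM in arrested libraries, so the arrested libraries were the highest. Of 19 genes of TGF-beta signalling, the pathway that drives much of matrix synthesis, 17 were tested, with 8 positive and 9 negative differences between competent and control and 9 and 8 between arrested and competent. Tgfbi, a TGF-beta induced matrix protein, was at 41.2, 42.8 and 71.5 FPKM in control, 39.1, 21.5 and 40.1 FPKM in competent, and 86.3, 97.9 and 244 FPKM in arrested libraries. Each arrested library was above every other library, by 1.94 ± 0.43 in mean log2(FPKM + 1) from competent (adjusted p = 0.256) and by 1.33 ± 0.43 from control (adjusted p = 0.904, limma). Inhbb, the activin subunit, was at 6.62, 15.4 and 17.7 FPKM in control, 28.7, 26.9 and 30.2 FPKM in competent, and 6.35, 16.8 and 20.9 FPKM in arrested libraries. Its competent libraries were above all of the other 6.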

How the data were processed

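RNA of mouse uterus was sequenced in 9 libraries, 3 per group. Per the labels' protocols, TruSeq libraries were made from 1 µg of total RNA. Per the submitters' processing notes, the tools were Bowtie 0.12.2 and Cufflinks (version not given in the sources used here), with mm9. The authors deposited FPKM per transcript and a coverage signal, the read depth over each transcript. Depth in reads is unknown, so no counting interval is given.

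A gene's FPKM was the sum over annotated transcripts, matched by identifier to GENCODE vM1 on NCBIM37. Of 92839 annotated transcripts per library, 1354 to 1356 were not in that reference and were left out. FPKM were used as deposited. With Python 3.11.15 and pandas 2.3.3, exon coverage was computed as coverage times length over a gene's annotated transcripts and its assembled transcripts, divided by merged exon length and scaled per library to FPKM. The 13333 genes that averaged 1 FPKM or more were tested on log2(FPKM + 1), a scale that understates differences of low genes, with limma 3.58.1 in R 4.3.3. A single fit of 9 libraries with a mean trend gave 3 contrasts and 8.07 total degrees of freedom, 2.07 of them prior, with Benjamini-Hochberg adjustment over all genes and a threshold of 0.05. Tested on simulated data for arrested against competent (13333 genes, 200 of them changed, 3 simulations), limma found 23.7% of the genes changed by log2 1 and 62% of those changed by log2 2, beside 5 false calls on average. The share found among matrix genes, whose median SD in arrested libraries was 0.96 against 0.36 for all genes, was not tested.

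The members, lists and tests were chosen with earlier results of these data known. Values in every library are given for members with an unadjusted p under 0.05 or with groups that do not overlap in a comparison, for the 3 of highest mean in each role class, for any member with a library at 0, and for Mmp7, Mmp11, Tnc, Timp1 and Eln. The others are given by range. From the other lists, up to 3 genes per comparison with the smallest unadjusted p under 0.05 are named. Over all tested genes, samples sharing a replicate number showed little shared deviation from their group means: 9 correlations ran from -0.0516 to 0.0958, none over the limit set at 0.1. Between samples of unlike number in different groups the correlations ran from -0.0936 to 0.0819. Alternatives varied the pseudocount, filters, scaling, gene value, fit and libraries.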

Additional observations from a re-analysis of the deposited data

How the results depend on the processing

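No matrix gene passed an adjusted p of 0.05 (limma) under any of the 23 settings tried. The 18 single-gene differences followed were those with an unadjusted p under 0.05 (limma) or with groups that did not overlap. They kept their direction in all 413 alternative fits, which that choice largely fixed in advance, so it is no measure of stability. Col3a1, not among them, turned from 2.12 to -0.33 between competent and control without control library 3. Counts over all genes moved more. Between arrested and competent the count of 18 genes became 11 with the top transcript alone, 58 with exon coverage, 33 with the 2 groups fitted alone and 10 with no trend, and leaving out 1 library at a time gave 11 to 41. Between competent and control the count of 6 became 2 with a pseudocount of 5, 10 with no filter on low values, 1 with exon coverage and 12 with the 2 groups alone, and 4 to 16 without 1 library. Between arrested and control the count of 7 became 1 when genes with a mean over 5 FPKM that were listed at 0 in a library were left out and 3 with the top transcript alone, and was 7 to 25 without 1 library. Exon coverage without arrested library 1, chosen after seeing the data, gave 38, 3 and 11 genes in these comparisons; the counts of genes whose groups do not overlap under other settings were also added then. With the replicate number as a block the counts were 4, 1 and 5. Whether the numbers pair the samples is not in the labels. The causes were not tested. Unknown read depth limits what can be said of genes at a few FPKM.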
